A study of Mus musculus with 2 samples.

Results

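The vascular endothelial growth factor (VEGF) ligand and receptor genes were examined across the cells of the lung: the ligand genes Vegfa, Vegfb, Vegfc and Pgf, the receptor genes Kdr, Flt1 and Flt4, and the co-receptor genes Nrp1 and Nrp2. These 9 genes were taken by symbol from the 27998 genes of the count tables, and each symbol matched 1 gene. Single-cell RNA sequencing (scRNA-seq) had been performed on whole lungs of wild-type C57BL/6 mice at 2 weeks of age, which had breathed room air with 21% O2 or, as a hyperoxia group, 80% O2 from birth (P0) to P14, a model of bronchopulmonary dysplasia. The cells of 8 mice were mixed into 1 library per group, so neither group had a replicate and no test between the groups was possible.

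VEGF-A is the main growth factor of blood vessels, and in the lung it is made in large part by alveolar type 1 (AT1) cells, whose thin bodies lie against the capillaries. It signals through KDR (VEGFR2), while FLT1 (VEGFR1) binds VEGF-A, VEGF-B and placental growth factor (the Pgf product) tightly and signals weakly, so that it can act as a trap for ligand. FLT4 (VEGFR3) is the receptor for VEGF-C and VEGF-D and is best known from lymphatic vessels. The neuropilins NRP1 and NRP2 hold ligand for these receptors and also bind class 3 semaphorins. The alveolar capillary bed has general capillary (gCap) cells, which serve as progenitors, and aerocytes (aCap cells), large cells at the gas exchange surface that depend on VEGF-A from AT1 cells.

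Filtering left 3680 cells in the room air library and 10473 in the hyperoxia library, with a median of 8074.5 and 7262 UMIs (unique molecular identifiers, each marking 1 captured mRNA molecule). Cells were clustered without regard to library and named from marker genes, none of which was a VEGF gene. Names end in -like because they were rebuilt from the counts, and endothelial-like cells are called ECs below (905 in room air, 2231 in hyperoxia). All 8 EC markers, such as Pecam1 and Cdh5, were detected in ECs of both libraries, whereas the vein marker Ackr1 had no UMI in either library. Cells without a name numbered 325 (8.83%) in room air and 1037 (9.90%) in hyperoxia. The libraries had 17 barcode sequences in common, 13 of them among the kept cells. A level is given as CPM, the UMIs of a gene scaled to 1e+06 UMIs, over the summed cells of a class, with an exact Poisson 95% interval in parentheses, and a ratio is hyperoxia over room air with an exact conditional 95% interval. They hold the error of counting UMIs, and nothing of the spread between mice or between libraries. Since UMIs are shares of a cell's total, less VEGF mRNA and more of other mRNAs cannot be told apart. Free RNA in the droplets was read from B-like cells (396 and 1322 cells), where the room air and hyperoxia levels were 13.2 and 23.2 CPM for Vegfa, 9.44 and 14.5 CPM for Kdr, and 8.02 and 22.9 CPM for Nrp1.

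The upstream sequences of the receptor genes Kdr, Flt1 and Flt4 are shown because each gene was found in gCap-like and aCap-like cells. That of Vegfa is shown because it is the ligand these cells meet in the alveolus. RefSeq (GRCm38.p6) gave 11 promoter windows for the 9 genes, and the 250 bases before each annotated start site were searched on both strands for a GC box (GGGCGG, or CCGCCC on the other strand), the core of the hypoxia response element (ACGTG, or CACGT) and the cyclic AMP response element (TGACGTCA). Matches are in capitals, and each sequence runs 5' to 3' toward the start site.
Vegfa, chr17:46032378-46032627, minus strand: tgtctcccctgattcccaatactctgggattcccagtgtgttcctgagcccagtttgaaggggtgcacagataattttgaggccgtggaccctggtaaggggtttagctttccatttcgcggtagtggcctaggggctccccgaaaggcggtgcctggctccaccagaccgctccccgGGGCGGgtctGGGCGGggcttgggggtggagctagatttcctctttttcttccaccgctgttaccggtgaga
Kdr, chr5:75978456-75978705, minus strand: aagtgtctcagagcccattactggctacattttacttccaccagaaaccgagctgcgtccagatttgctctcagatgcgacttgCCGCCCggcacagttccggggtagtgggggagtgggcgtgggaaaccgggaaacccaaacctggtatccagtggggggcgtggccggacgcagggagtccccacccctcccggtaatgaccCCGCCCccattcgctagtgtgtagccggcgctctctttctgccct
Flt1, chr5:147726012-147726261, minus strand: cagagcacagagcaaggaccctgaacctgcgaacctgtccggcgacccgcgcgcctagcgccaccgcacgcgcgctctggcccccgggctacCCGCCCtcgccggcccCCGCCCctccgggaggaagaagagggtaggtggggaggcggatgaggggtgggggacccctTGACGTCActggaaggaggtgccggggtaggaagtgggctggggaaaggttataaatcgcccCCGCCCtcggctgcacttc
Flt4, chr11:49609429-49609678, plus strand: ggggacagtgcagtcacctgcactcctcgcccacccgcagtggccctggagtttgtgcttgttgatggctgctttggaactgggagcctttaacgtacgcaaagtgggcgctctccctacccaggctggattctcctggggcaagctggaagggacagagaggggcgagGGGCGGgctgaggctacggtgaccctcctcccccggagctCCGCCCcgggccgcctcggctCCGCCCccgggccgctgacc
A GC box was present in 10 of the 11 windows, against 33.0% of the 32536 distinct windows of all genes. The 11 windows had between 59.2% and 76.4% G and C, and windows of like composition were not compared. The window of Vegfa shown held 2 GC boxes, starting 72 and 62 bases before the start site, and no ACGTG. The window before the second annotated start site of Vegfa, chr17:46025164-46025413, lay inside the gene (chr17:46016993-46032369). It was the single window of the 9 genes with ACGTG, a motif held by 16.7% of all windows. Bases further upstream of either start site were not searched. The Flt1 window was the single one with TGACGTCA, which 1.56% of all windows held. These matches describe the letters of the windows, and binding at them was not measured.

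**Figure D1:**
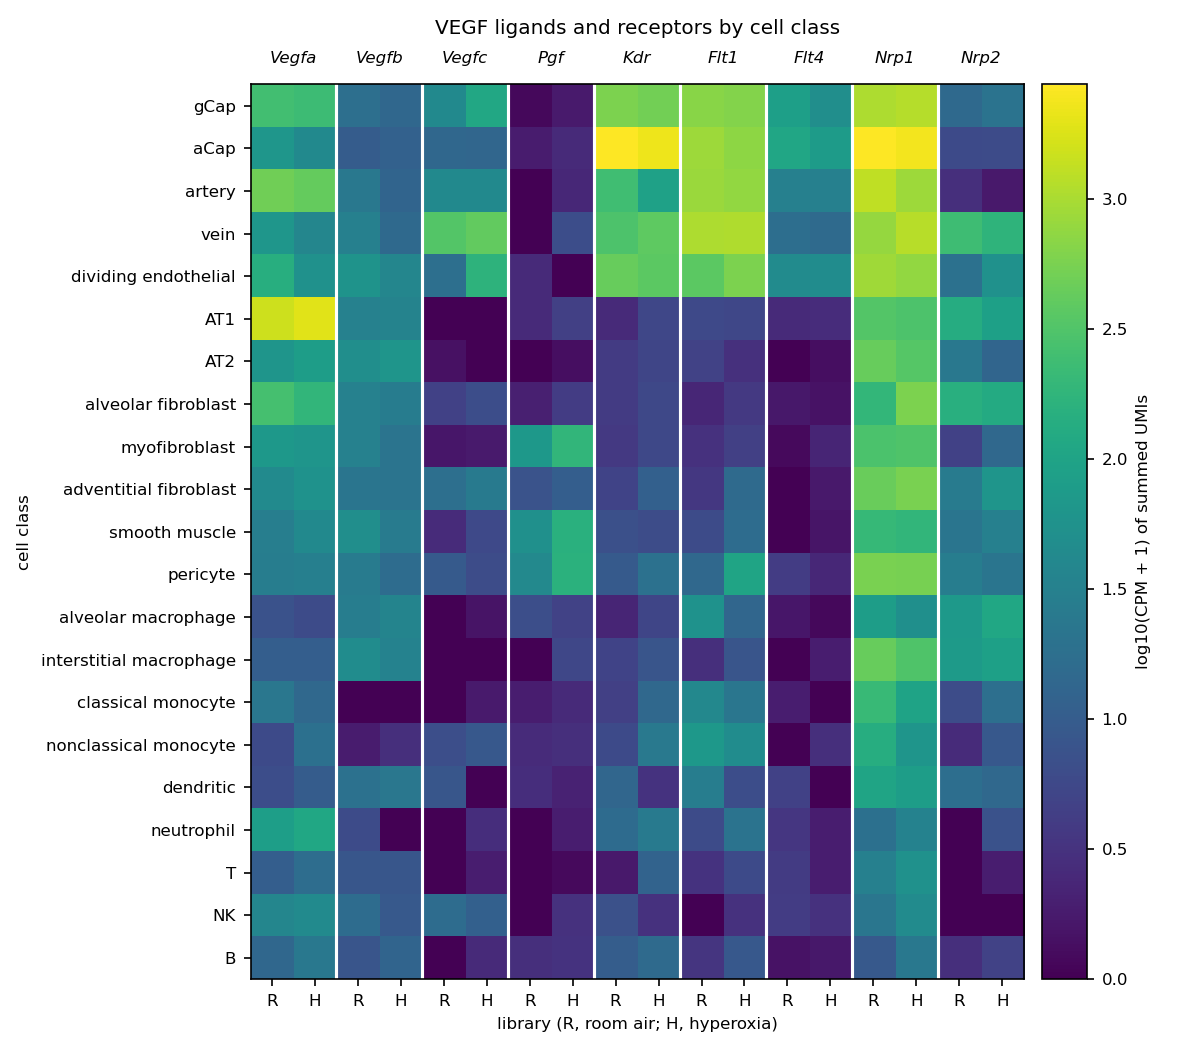
Level of each VEGF gene (columns, room air R beside hyperoxia H) in 21 cell classes (rows, names without the ending -like), as log10(CPM + 1) of summed UMIs in color. Kdr and Flt1 were high in the 5 EC rows, Flt4 mainly in the gCap and aCap rows, Vegfa in the AT1 row and Pgf in the myofibroblast, smooth muscle and pericyte rows, in both libraries.

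Vegfa (chr17:46016993-46032369 of GRCm38, minus strand) was highest in AT1-like cells in both libraries (63 and 131 cells), at 1523 (1428 to 1622) CPM in room air against 1940.2 (1861 to 2022) CPM in hyperoxia. Artery-like cells came next, at 498 (439.5 to 563) and 428 (395 to 463) CPM. In room air, alveolar fibroblast-like cells (268 (249.8 to 287) CPM) and gCap-like cells (251 (237 to 265) CPM) followed, with intervals that overlapped. In hyperoxia gCap-like cells (229 (219 to 240.3) CPM) stood above alveolar fibroblast-like cells (181 (174 to 189) CPM), and these intervals did not overlap. Thus the capillary bed held Vegfa mRNA of its own, mostly in gCap-like cells: aCap-like cells, next to the AT1-like source, had 64.2 and 42.1 CPM. At 2000 UMIs per cell, Vegfa was found in 38.3% of gCap-like cells in room air and 35.7% in hyperoxia (12 and 1 shallower cells left out), against 2.44% and 4.40% of B-like cells. Without thinning the shares were 69.9% and 70.6% of gCap-like cells (median 7790 and 9185 UMIs) and 6.31% and 7.49% of B-like cells (median 4559 and 2935 UMIs).

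Between the libraries, the level of Vegfa in AT1-like cells was 1.27 (1.18 to 1.38) times as high in hyperoxia, but this difference depended on which cells were called AT1-like. The log2 ratio was 0.35 as reported, -0.044 without doublet removal and 0.065 when each library was clustered on its own. AT1-like cells lay in 2 clusters, a deep one (31 and 72 cells) with 1929 and 2061 CPM, and a shallow one (32 and 59 cells) with 816 and 1477 CPM. The larger difference was thus in the shallow cluster, whose cells had medians of 2015 and 1546 UMIs. Alveolar fibroblast-like cells had less Vegfa in hyperoxia, with a ratio of 0.677 (0.624 to 0.734). In gCap-like cells the ratio was 0.914 (0.850 to 0.984), and the log2 ratio turned from -0.13 to 0.026 with each library clustered on its own. The gCap-like cells of hyperoxia lay mainly in a pair of clusters that differed more from each other than the libraries did: 324 CPM in 475 cells and 96.9 CPM in 296 cells, beside 251 CPM in the 592 gCap-like cells that formed the main room air cluster. For AT2-like cells, which make surfactant, Vegfa was 62.3 (52.7 to 73.1) CPM with room air and 81.03 (75.98 to 86.3) CPM with hyperoxia. Over all kept cells it was 127 and 114 CPM.

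Counted as sources, gCap-like cells held 26.9% (25.7 to 28.2) of the Vegfa UMIs of room air and AT1-like cells held 21.04% (19.9 to 22.2), although AT1-like cells were 63 of 3680 cells. Alveolar fibroblast-like cells held 17.3%. In hyperoxia the shares were 17.2% (16.5 to 17.97) for gCap-like cells, 22.2% (21.4 to 23.03) for AT1-like cells and 22.9% for alveolar fibroblast-like cells. These shares follow the cells captured as well as the level per cell. Among named cells only, and with the classes of hyperoxia weighted as in room air, the room air and hyperoxia shares were 28.9% and 34.2% for gCap-like cells, 22.6% and 27.8% for AT1-like cells and 18.6% and 10.6% for alveolar fibroblast-like cells, so that gCap-like cells were again the first source and AT1-like cells the second. ECs as a whole held 36.98% of the Vegfa UMIs in room air and 27.7% in hyperoxia.

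Vegfb (chr19:6982473-6987651, minus strand), a ligand of FLT1 that has little effect on vessel growth in most tissues, was low and spread over many classes. AT2-like cells had 49.3 (40.8 to 59.1) CPM in room air against 62.1 (57.7 to 66.7) CPM in hyperoxia. Smooth muscle-like cells had 48.7 and 25.7 CPM, a ratio of 0.527 (0.376 to 0.746). Lower levels in hyperoxia were also found in myofibroblast-like cells (ratio 0.629 (0.499 to 0.794)), in pericyte-like cells (0.597 (0.357 to 0.997)) and in ECs (0.601 (0.493 to 0.735)). B-like cells had 7.08 and 12.0 CPM of Vegfb, and in hyperoxia pericyte-like cells (15.5 CPM) and ECs (12.8 CPM) were not far above that. Across the settings run, the log2 ratio in ECs lay between -4.15 and -0.38. In ECs the log2 ratio was -0.73 as captured and -0.50 with the subpopulations weighted as in room air, and the intervals of gCap-like cells (0.765 (0.567 to 1.03)) and aCap-like cells (1.19 (0.632 to 2.46)) held 1. The level over all kept cells was 24.1 and 24.6 CPM, which also follows the cells captured. AT2-like cells were 4.27% of the kept cells in room air and 7.77% in hyperoxia. AT2-like cells held 13.5% of its UMIs in room air and 33.8% in hyperoxia, or 14.2% and 22.4% among named cells with the classes weighted as in room air.

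Vegfc (chr8:54077606-54187096, plus strand), the FLT4 ligand known for lymphatic growth, was held largely by ECs, which held 82.8% (79.1 to 86.2) of its room air UMIs and 84.2% (82.6 to 85.8) of its hyperoxia UMIs. Vein-like cells had the highest level in both libraries, 332 (275 to 396) and 407 (374 to 441) CPM. In gCap-like cells Vegfc was 42.1 (36.6 to 48.2) CPM with room air (209 UMIs in 605 cells) and 115 (108 to 123) CPM with hyperoxia (869 UMIs in 793 cells). The ratio of 2.73 (2.35 to 3.19) was as large or larger in 0.764% of the 8110 genes whose mean CPM was 10 or more in gCap-like cells. Both hyperoxia clusters of gCap-like cells lay above the main room air cluster, at 75.4 and 175 CPM against 39.1 CPM. The cluster with the most Vegfc was thus the one with the least Vegfa. The 22 hyperoxia cells that lay in the main room air cluster had 23.3 (6.34 to 59.6) CPM of Vegfc, from 4 UMIs. The higher level was therefore not seen in the few cells that shared this cluster. As the libraries shared few gCap-like cells in 1 cluster, the classes also differed in markers, of which 4 of 8 were lower in hyperoxia, such as Aplnr (319 and 115 CPM) and Kit (503 and 235 CPM), and 4 higher, such as Cd93 (1741 and 2591 CPM). What this contributed was not tested. At 2000 UMIs per cell, 5.90% (4.15 to 8.11) of gCap-like cells had Vegfc in room air, against 15.7% (13.2 to 18.4) in hyperoxia, while B-like cells had it in 0 of 369 cells, which allows a share of up to 0.813%, and in 0.423%. Without thinning, the shares of gCap-like cells were 14.7% and 39.5%. The capillary cells differed here, since aCap-like cells had 12.99 and 12.7 CPM. Dividing EC-like cells (43 in each library) went with gCap-like cells, at 16.9 (8.42 to 30.2) and 169 (133 to 211) CPM.

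Pgf (chr12:85166635-85177790, minus strand), which encodes a ligand that binds FLT1 and not KDR, was a gene of contractile and perivascular cells. Stromal-like cells held 88.1% of its UMIs in room air and 91.9% in hyperoxia. In myofibroblast-like cells, which pull the alveolar septa into the airspace, Pgf was 66.8 (59.6 to 74.7) CPM in room air against 185 (175 to 194) CPM in hyperoxia, a ratio of 2.76 (2.44 to 3.13). In smooth muscle-like cells it was 52.1 (39.9 to 66.8) and 152 (139 to 165) CPM, a ratio of 2.92 (2.24 to 3.86). Pericyte-like cells, which wrap the capillaries, had 41.1 (30.9 to 53.7) and 156 (139.5 to 174) CPM, a ratio of 3.79 (2.84 to 5.16). In each of these 3 classes the level was higher in hyperoxia and the intervals did not overlap. The share of genes with as large a ratio was 0.836% of 8375 in myofibroblast-like cells, 0.783% of 8427 in smooth muscle-like cells and 0.571% of 8584 in pericyte-like cells. Alveolar fibroblast-like cells stayed low, at 1.004 and 3.15 CPM. ECs had 0.631 and 1.53 CPM.

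In pericyte-like and myofibroblast-like cells, the higher Pgf was present within clusters as well as between them. Pericyte-like cells of the cluster shared about equally by the libraries (98 and 100 cells) had 20.8 CPM with room air and 63.6 CPM with hyperoxia. A second pericyte-like cluster (23 and 104 cells) had 125 and 238 CPM. It made up 23 of the 130 pericyte-like cells of room air and 104 of the 238 of hyperoxia. The ratio over the class thus also follows its make-up. For myofibroblast-like cells, the cluster present in both libraries (127 and 240 cells) had 34.4 and 92.2 CPM. The other cells lay in a room air cluster (207 cells, 82.6 CPM) and a hyperoxia cluster (353 cells, 252 CPM). Smooth muscle-like cells lay in a cluster of 61 and 149 cells and a cluster of 30 and 152 cells, whose levels are not given. Most of their markers were higher in hyperoxia, such as Myh11 (1622 and 3070 CPM) and Tagln (4821 and 8369 CPM), while Hhip was lower (434 and 224 CPM). At 2000 UMIs per cell, Pgf was found in 10.4% and 30.3% of myofibroblast-like cells (1 and 3 left out), in 7.87% and 19.3% of smooth muscle-like cells (2 and 0) and in 4.96% and 20% of pericyte-like cells (9 and 28). The same shares in B-like cells were 0.542% and 0.593%. Without thinning they were 41.9% and 68.2%, 29.7% and 45.2%, 22.3% and 43.7%, and 0.758% and 0.756%.

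**Figure D2:**
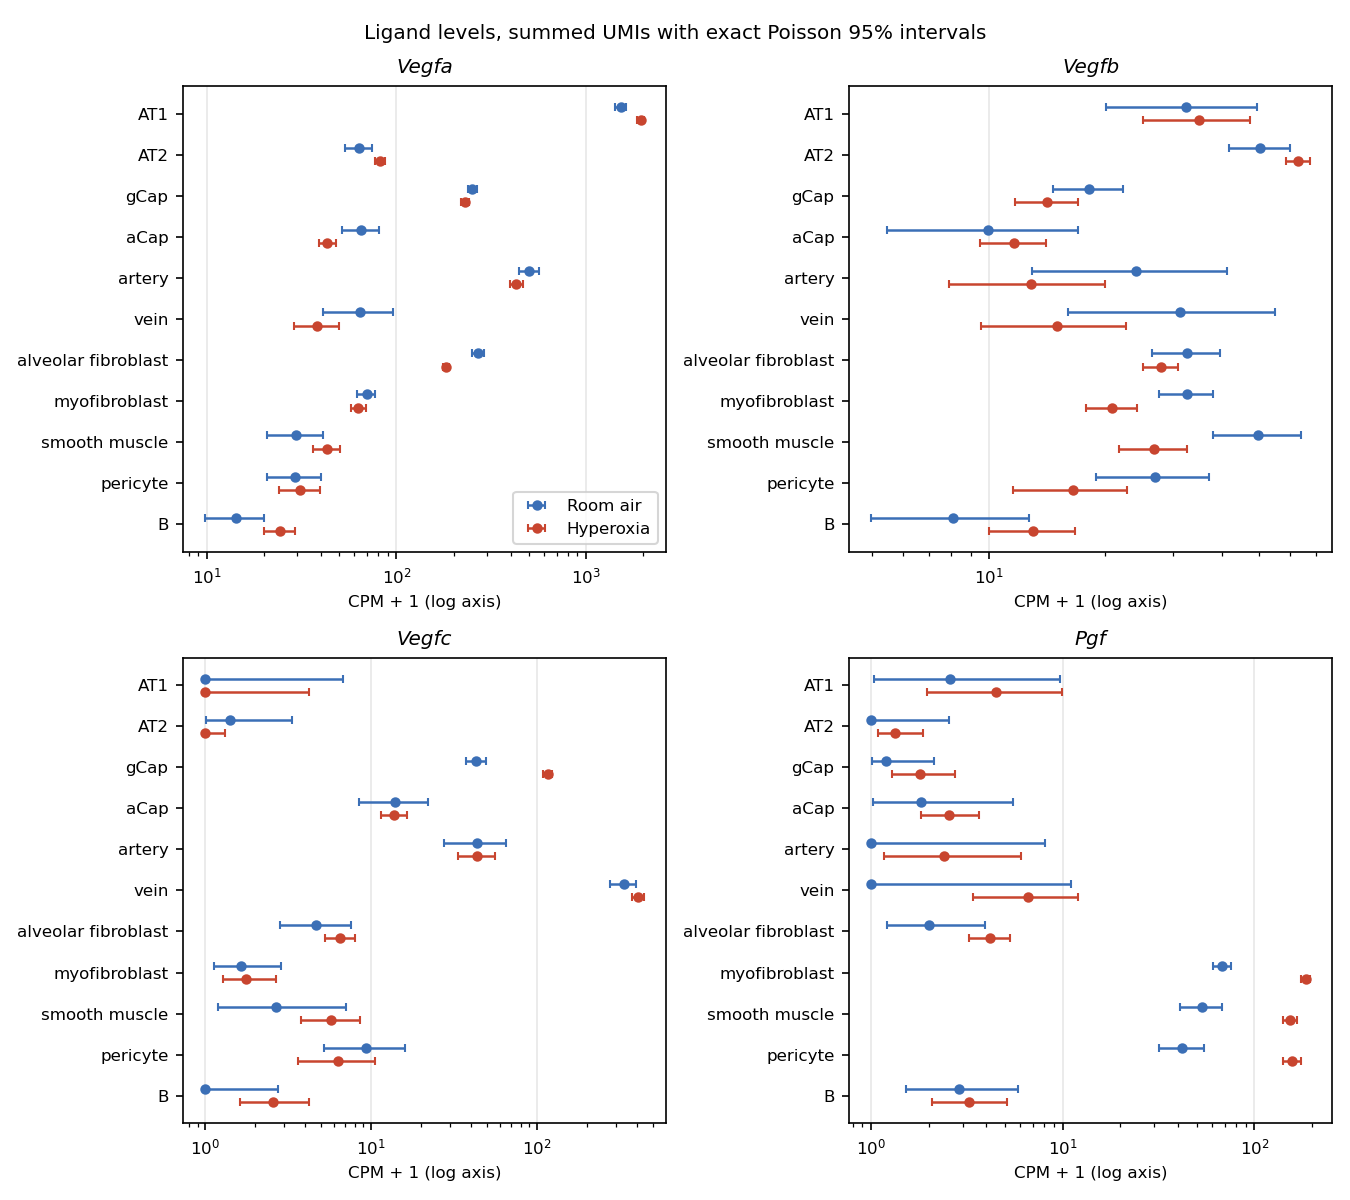
CPM + 1 on a log axis of the 4 ligand genes in 11 cell classes, 1 point per library (blue room air, red hyperoxia) with the exact Poisson 95% interval. Pgf points of myofibroblast, smooth muscle and pericyte cells and the Vegfc point of gCap cells lie to the right in hyperoxia with no overlap of intervals, while Vegfb points stay below 100 CPM throughout.

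**Figure D3:**
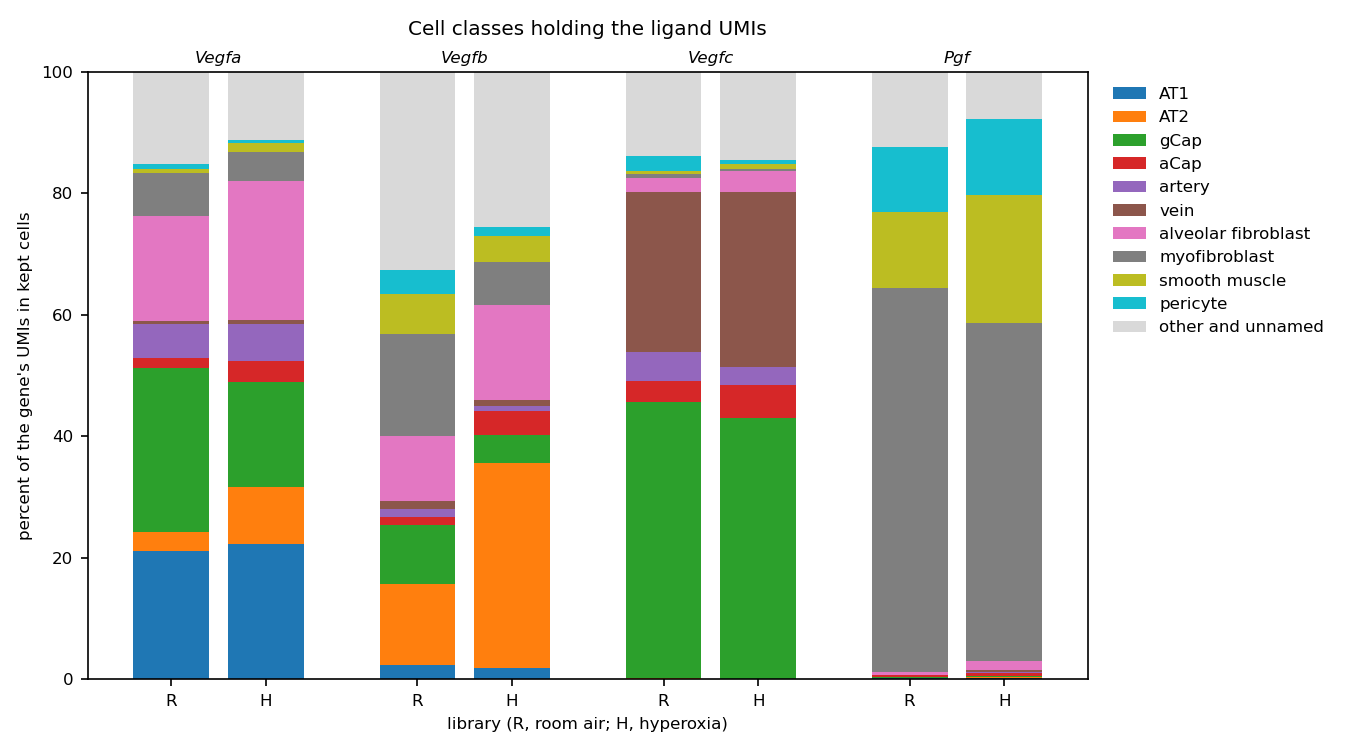
Percent of each ligand's UMIs (vertical axis) held by each cell class in the room air (R) and hyperoxia (H) library. Vegfa came from several classes, Vegfc mostly from gCap and vein cells, and Pgf mostly from myofibroblast, smooth muscle and pericyte cells.

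Kdr (chr5:75932827-75978458, minus strand), the main signaling receptor, was a gene of ECs, which held 91.05% of its UMIs in room air and 93.1% in hyperoxia. aCap-like cells stood far above the other ECs, at 2738 (2646 to 2832) CPM in room air against 2295 (2263 to 2328) CPM in hyperoxia. gCap-like cells had 587 (566 to 609) and 513 (497 to 529) CPM. Both capillary classes were lower in hyperoxia by a small margin, with ratios of 0.838 (0.808 to 0.870) and 0.873 (0.832 to 0.916). In artery-like cells (60 and 148 cells) Kdr was 242 (202 to 289) CPM with room air and 92.8 (77.7 to 110.01) CPM with hyperoxia. That ratio, 0.383 (0.298 to 0.492), was the lowest of Kdr in any EC class, and 1.74% of 8212 genes lay as low in artery-like cells. The share of artery-like cells with Kdr was 33.3% (21.4 to 47.1) and 12.9% (7.86 to 19.7) at 2000 UMIs per cell (3 and 9 left out) and 68.3% and 41.9% with all UMIs, against 4.29% and 4.69% of B-like cells. Vein-like cells went the other way, from 299 to 387 CPM, a ratio of 1.29 (1.05 to 1.60). Among EC classes of 20 or more cells in each library, the order in room air was aCap-like, gCap-like, dividing EC-like, then vein-like and artery-like with overlapping intervals. In hyperoxia vein-like and dividing EC-like cells overlapped and artery-like cells were last.

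Pooled over all ECs, Kdr was higher in hyperoxia, 1237 against 877 CPM, a ratio of 1.41 (1.37 to 1.45), although it was lower in both capillary classes. The pool held different cells in the libraries: aCap-like cells were 16.5% of the ECs of room air and 49.3% of those of hyperoxia, and gCap-like cells 66.9% and 35.5%. With the subpopulations of hyperoxia weighted by their UMIs in room air, the level was 748 CPM and the log2 ratio turned from 0.50 to -0.23. The same weighting took the log2 ratio of Nrp1 in ECs from 0.36 to 0.00659, that of Vegfa from -0.60 to -0.22 and that of Vegfc from 0.85 to 1.19. Most aCap markers were lower in the aCap-like cells of hyperoxia, such as Ednrb (1311 and 539 CPM), Emp2 (3761 and 1731 CPM) and Car4 (1724 and 1197 CPM). Tbx3 differed little (976 and 946 CPM), and Prx was higher (646 and 780 CPM). The shares of ECs thus describe the classes as named and not numbers of aerocytes. Within aCap-like cells, the cluster that held most cells of room air (79 cells) had 3239.9 CPM of Kdr, and its 263 cells of hyperoxia had 2446 CPM. The largest cluster of hyperoxia (534 cells) had 2235 CPM, and its 32 cells of room air had 2029 CPM. A shallow cluster (27 and 188 cells) had 2319 and 1387 CPM, and a cluster of hyperoxia alone (115 cells) had 2799 CPM. The lower Kdr was thus not found in every aCap-like cluster.

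**Figure D4:**
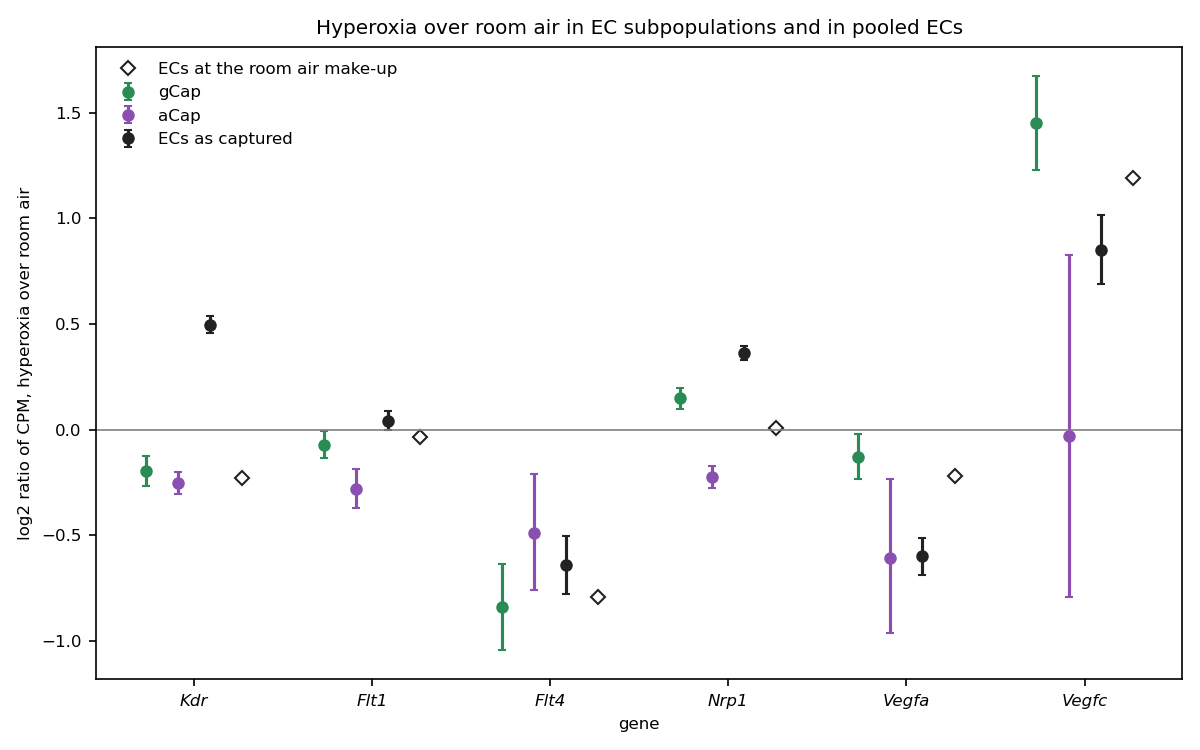
Log2 ratio of CPM, hyperoxia over room air (vertical axis), of 6 genes in gCap cells (green), aCap cells (purple), ECs as captured (black) and ECs at the room air make-up (open diamonds, without an interval), with 95% counting intervals. Kdr lies below 0 in both capillary classes and above 0 in pooled ECs, and Vegfc lies at 1.45 in gCap and at -0.03 in aCap cells.

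Flt1 (chr5:147561604-147726011, minus strand) was spread more evenly over ECs. Vein-like cells had 1044 (942 to 1154) CPM in room air against 1060.3 (1008 to 1115) CPM in hyperoxia, the highest level in both libraries. Artery-like, aCap-like and gCap-like cells lay between 670.3 and 875 CPM with room air and between 637 and 771 CPM with hyperoxia. In aCap-like cells the ratio was 0.824 (0.772 to 0.880), but not every cluster of them was lower in hyperoxia. The largest cluster of hyperoxia (32 and 534 cells) had 626 and 660 CPM, with intervals that overlapped. The cluster with most cells of room air (79 and 263 cells) had 1071 and 862 CPM, and the shallow one (27 and 188 cells) 663 and 494 CPM. In gCap-like cells the ratio was 0.951 (0.910 to 0.994), and in pooled ECs 1.03 (0.998 to 1.06).

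Outside ECs, the largest ratio of Flt1 among the stromal-like, epithelial-like and myeloid-like classes was in pericyte-like cells (130 and 238 cells). Its level was 13.7 (8.13 to 21.7) CPM in room air (18 UMIs) against 101 (88.2 to 116) CPM in hyperoxia (210 UMIs), a ratio of 7.40 (4.57 to 12.7). Of 8584 genes in pericyte-like cells, 0.233% had as large a ratio. In the cluster shared about equally by the libraries the level was 14.8 and 143 CPM, and in the second cluster 11.4 and 68.5 CPM. At 2000 UMIs per cell, 2.48% (0.514 to 7.07) of pericyte-like cells had Flt1 in room air, against 13.3% (9.05 to 18.7) in hyperoxia (9 and 28 left out), beside 0 of 369 (up to 0.813%) and 1.19% of B-like cells. With all UMIs the shares were 9.23% and 35.7% of pericyte-like and 1.26% and 2.27% of B-like cells. Because Flt1 is high in ECs, EC RNA in pericyte-like cells was measured too. The summed level of the 8 EC markers was 158 CPM in pericyte-like cells of room air and 139.6 CPM in those of hyperoxia, or 1.30% and 1.09% of their sum in ECs, and 3 of the 8 markers were higher in hyperoxia. In pericyte-like cells without any UMI of these markers (48 and 103 cells), Flt1 was 6.36 CPM (3 UMIs) and 89.2 CPM (68 UMIs), a ratio of 14.03 (4.60 to 69.7). Of genes known to respond to tissue dissociation, 6 of 10 (such as Fos and Jun) lay past a ratio of 1.5 in pericyte-like cells. All of these were higher in hyperoxia, beside 20.9% of all 8584 genes past 1.5 in either direction. Their part in the Flt1 result was not tested. The pericyte-like cells of hyperoxia thus held more of both Pgf and its receptor gene than those of room air. In smooth muscle-like cells Flt1 was 5.04 and 15.4 CPM, and the log2 ratio went from 1.61 to -0.91 when each library was clustered on its own.

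In alveolar macrophage-like cells Flt1 had the opposite direction, 55.7 (44.8 to 68.6) CPM with room air and 12.8 (9.99 to 16.1) CPM with hyperoxia, a ratio of 0.229 (0.165 to 0.316). FLT1 on macrophages and monocytes is known for its role in their migration. The share of these cells with Flt1 at 2000 UMIs was 19.5% (12.8 to 27.8) and 1.99% (0.735 to 4.29) (7 and 13 left out), and 44.8% and 15.3% with all UMIs, beside the B-like shares just given. In alveolar macrophage-like cells without EC marker UMIs the level was 58.9 and 12.4 CPM. The macrophages of the libraries lay in different clusters: 112 of the 125 cells of room air shared a cluster with 7 cells of hyperoxia, and 307 of the 314 cells of hyperoxia with 13 of room air. The median log2 ratio of all 7159 genes in this class was -0.20. Flt1 was also lower in classical monocyte-like cells (39.1 and 21.3 CPM, ratio 0.544 (0.324 to 0.898)) and in dendritic-like cells (27.3 and 5.58 CPM, from 15 and 5 UMIs). Nonclassical monocyte-like cells had 68.5 and 46.9 CPM, with a ratio of 0.685 (0.416 to 1.09) whose interval held 1.

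Flt4 (chr11:49609263-49652739, plus strand) was found in blood ECs as well as in lymph-like ECs. The 14 lymph-like cells of room air had 589 (485 to 708) CPM and the 35 of hyperoxia 171 (127 to 226) CPM. These few cells were not alike in the libraries, because the lymphatic markers Prox1 (1624 and 528 CPM), Ccl21a (9375 and 2627 CPM) and Reln (531 and 44.6 CPM) were lower in hyperoxia while Flt1 (126 and 720.3 CPM) and Nrp1 (126 and 779 CPM) were higher. No ratio is given for them. Among capillary cells, aCap-like cells had 109 (91.2 to 129) CPM in room air against 77.6 (71.7 to 83.8) CPM in hyperoxia, a ratio of 0.713 (0.591 to 0.865). gCap-like cells had 87.3 (79.2 to 95.9) and 48.7 (43.9 to 53.97) CPM, a ratio of 0.558 (0.485 to 0.643), and 4.54% of 8110 genes lay as low. In the main clusters of gCap-like cells Flt4 was 88.4 CPM with room air and 41.7 and 56.6 CPM with hyperoxia. These were separate clusters, and the 22 hyperoxia cells in the main room air cluster had 81.5 (44.5 to 137) CPM, from 14 UMIs. At 2000 UMIs per cell it was found in 16.4% (13.5 to 19.6) and 9.22% (7.29 to 11.4) of gCap-like cells and in 0.271% and 0.0847% of B-like cells, and with all UMIs in 45.3% and 32.7% of gCap-like and 0.253% and 0.227% of B-like cells. Over gCap-like cells as a class, the ligand gene Vegfc and its receptor gene Flt4 therefore differed in opposite directions, mostly between separate clusters. Artery-like cells had 30.8 and 30.7 CPM.

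Nrp1 (chr8:128358604-128503363, plus strand) was found in epithelial-like, stromal-like and myeloid-like cells as well as in ECs. aCap-like cells had 2769 (2676 to 2863) CPM in room air against 2372 (2339 to 2405) CPM in hyperoxia. In gCap-like cells the values were 1035 (1007 to 1064) and 1147 (1123 to 1171) CPM, so that the level was lower in hyperoxia in aCap-like cells (ratio 0.857 (0.826 to 0.889)) and higher in gCap-like cells (1.11 (1.07 to 1.15)). Artery-like cells had 1293 and 877 CPM (ratio 0.678 (0.617 to 0.746)) and vein-like cells 800.1 and 1191 CPM (1.49 (1.31 to 1.69)). Of the EC classes, artery-like cells were second in room air and vein-like cells second in hyperoxia, the latter with an interval that overlapped that of gCap-like cells. Pericyte-like cells differed little as a class, at 566 and 547 CPM, but their clusters differed. The cluster shared about equally by the libraries (98 and 100 cells) had 417 and 453 CPM. The second cluster (23 and 104 cells) had 1171 (1044 to 1309) and 640 (594 to 690) CPM.

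The largest ratio of Nrp1 among the stromal-like classes was in alveolar fibroblast-like cells, the Tcf21-positive cells that carry lipid near AT2 cells. The level was 191 (175 to 207) CPM in room air (207 cells) and 588 (574 to 601) CPM in hyperoxia (1168 cells), a ratio of 3.08 (2.83 to 3.36), and 0.760% of 8420 genes had as large a ratio. Most of these cells lay in clusters of 1 library. The room air cluster (167 cells) had 192 CPM, and the 3 hyperoxia clusters (399, 316 and 315 cells) had between 564 and 617 CPM. A shallow cluster present in both libraries (34 and 137 cells) had 92.8 CPM (5 UMIs) and 476 CPM. At 2000 UMIs, 35.2% (28.2 to 42.6) and 62.7% (59.7 to 65.6) of the cells had Nrp1 (25 and 110 left out), against 1.36% and 4.23% of B-like cells, and with all UMIs 76.3% and 90.3% against 4.04% and 6.13%. In cells without EC marker UMIs (73 and 397) the level was 232 and 627 CPM. In the same class 9 of 10 dissociation genes lay past a ratio of 1.5, all higher in hyperoxia, beside 15.3% of all 8420 genes in either direction. The median log2 ratio of the dissociation genes was 0.90 beside 0.03 for all genes above 10 CPM. Their part in the Nrp1 result was not tested.

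In AT2-like cells Nrp1 was 434 (408 to 462) and 339.5 (329 to 350.2) CPM, a ratio of 0.782 (0.730 to 0.838). Several myeloid classes were lower in hyperoxia: interstitial macrophage-like cells had 444 and 308 CPM, classical monocyte-like cells 209.7 and 99.2 CPM, and alveolar macrophage-like cells 81.4 and 51.2 CPM. Neutrophil-like cells (105 and 460 cells) had 17.6 and 32.8 CPM, with a ratio of 1.86 (0.817 to 4.96), and dendritic-like cells 102 and 81.4 CPM, with a ratio of 0.798 (0.555 to 1.15). Both of these intervals held 1. Nrp1 in B-like cells, the measure of free RNA, was higher in hyperoxia.

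Nrp2 (chr1:62703285-62818695, plus strand), the co-receptor associated with veins and lymphatics, was highest in lymph-like cells (625 and 480.2 CPM) and, among classes of 20 or more cells in each library, in vein-like cells (236 (188 to 291) and 173 (152 to 196) CPM). Alveolar fibroblast-like cells (149.6 and 126 CPM) and AT1-like cells (133 and 90.4 CPM) followed in room air with overlapping intervals. Capillary cells had little, between 4.87 and 19.2 CPM. In alveolar macrophage-like cells, where Flt1 and Nrp1 were lower in hyperoxia, Nrp2 was higher, 72.7 (60.04 to 87.1) and 112 (103 to 121) CPM, with a ratio of 1.54 (1.26 to 1.90). Adventitial fibroblast-like cells (40 and 204 cells) had 25.9 and 61.3 CPM. AT1-like and AT2-like cells were lower in hyperoxia, with ratios of 0.679 (0.505 to 0.915) and 0.538 (0.392 to 0.747).

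**Figure D5:**
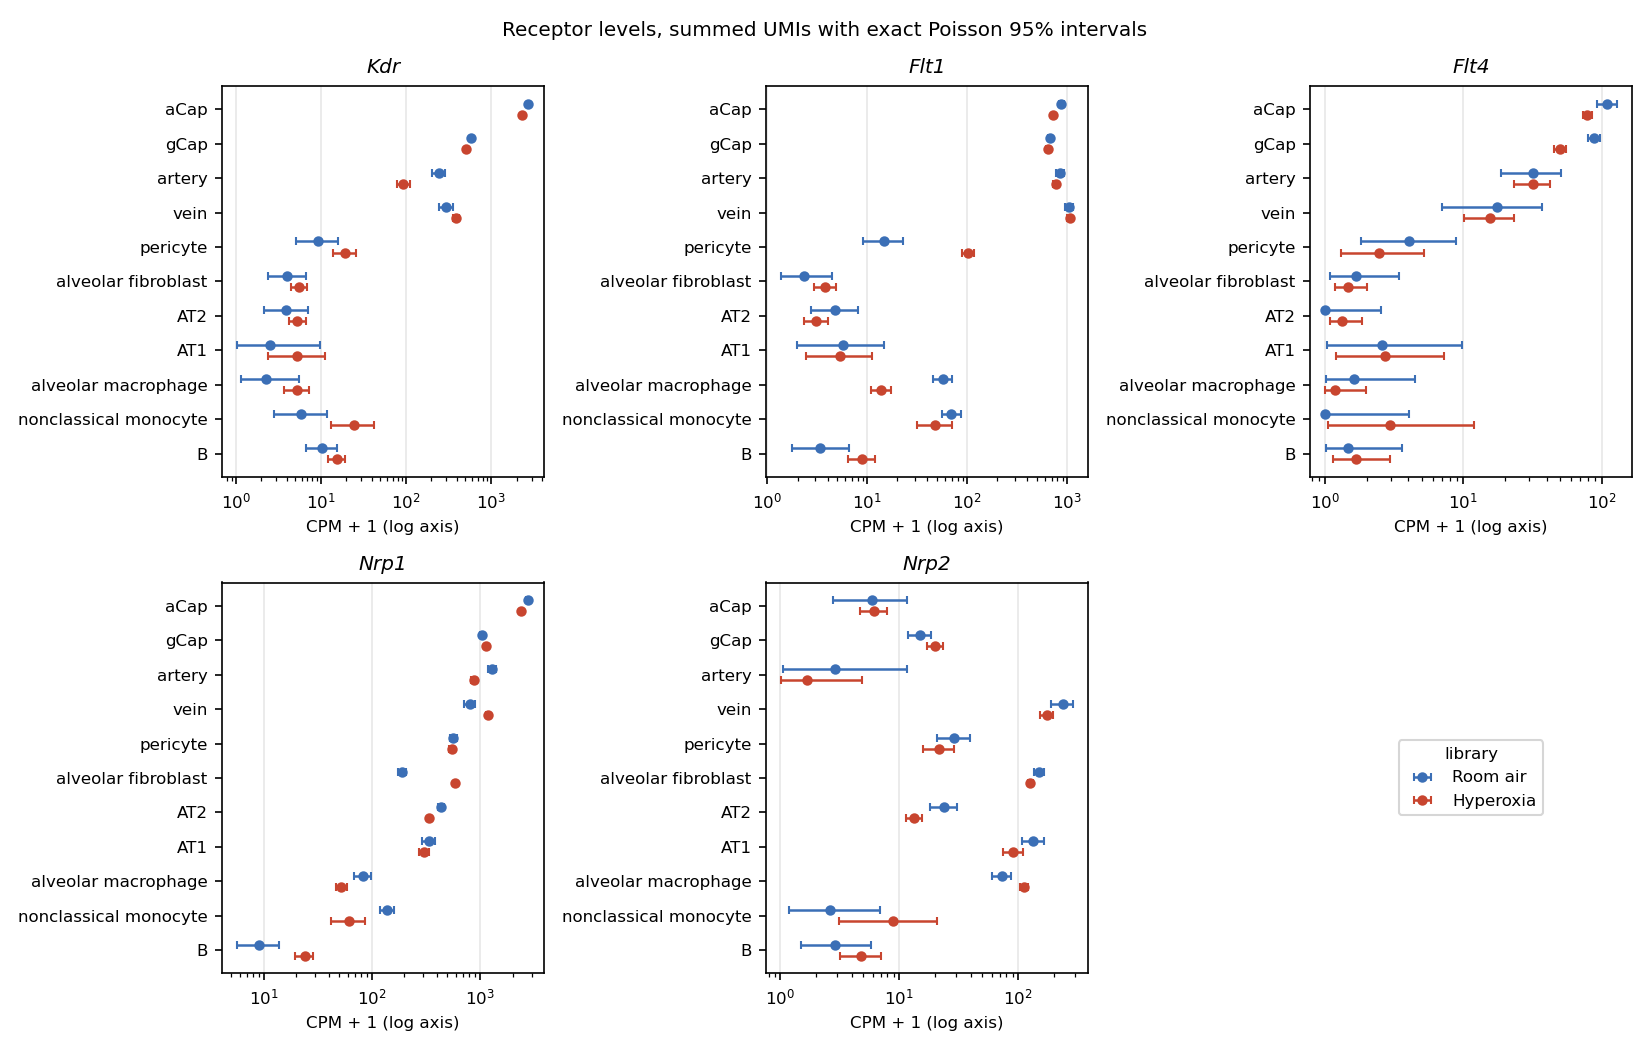
CPM + 1 on a log axis of the 5 receptor and co-receptor genes in 11 cell classes, 1 point per library (blue room air, red hyperoxia) with the exact Poisson 95% interval. The red point lies right of the blue one without overlap for Flt1 in pericyte cells and Nrp1 in alveolar fibroblast cells, and left of it for Flt1 in alveolar macrophage cells and Kdr in artery cells.

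How many of the 9 genes lay past a ratio of 1.5 was read against the same share of all genes, among genes whose mean CPM was 10 or more in the class. In gCap-like cells 1 of the 8 genes above that minimum (Vegfc) was higher and 1 (Flt4) lower, beside 7.16% higher, 10.2% lower and 17.3% in either direction of all 8110 genes. In aCap-like cells 0 of 6 were higher and 1 (Vegfa) lower, beside 8.71%, 9.28% and 18% of 8101 genes, and the value of Vegfa turned to a log2 ratio of 0.51 as a mean over single cells. In ECs 1 of 8 (Vegfc) was higher and 3 (Vegfa, Vegfb and Flt4) lower, beside 6.86%, 9.47% and 16.3% of 8407 genes. In artery-like cells 2 of 7 genes (Kdr and Vegfb) lay past the ratio, beside 29.5% of all genes in either direction, and in vein-like cells 2 of 8 (Vegfa and Vegfb, both lower, from 23 and 11 UMIs in room air), beside 36.7%. AT1-like cells had 0 of 4, beside 25.3%, and AT2-like cells 1 of 4 (Nrp2), beside 13.5%. Of stromal-like cells, alveolar fibroblast-like cells had 1 of 4 (Nrp1), beside 15.3%, and myofibroblast-like cells 2 of 4 (Pgf higher, Vegfb lower), beside 11.5%. Smooth muscle-like cells had 3 of 6 (Pgf and Flt1 higher, Vegfb lower), beside 21.5%, and pericyte-like cells 4 of 7 (Pgf, Flt1 and Kdr higher, Vegfb lower), beside 20.9%. Kdr in pericyte-like cells (8.38 and 18.4 CPM) and Flt1 in smooth muscle-like cells were not far from their levels in B-like cells (9.44 and 14.5 CPM, 2.36 and 7.79 CPM). Alveolar macrophage-like cells had 3 of 4 (Nrp2 higher, Flt1 and Nrp1 lower), beside 23.6%. In gCap-like, aCap-like, AT1-like and AT2-like cells the shares of VEGF genes were thus near those of all genes. Pooled ECs, with 1 higher and 3 lower of 8, lay above the 16.3% of all genes. Dividing EC-like, monocyte-like and neutrophil-like cells, among other classes, are left out of these counts. With 4 to 8 genes a class the counts allow no finer reading.

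The receptors were often found together in single capillary cells. At 2000 UMIs per cell, Kdr and Nrp1 were both present in 98.3% of aCap-like cells in room air (118 cells) and 95.3% in hyperoxia (897 cells), too near to all cells to be set against independent detection. For gCap-like cells these shares were 49.4% and 48.2%, with 48.6% and 46.5% if independent. Kdr and Flt1 were both present in 42.5% and 36.5% of gCap-like cells, with 41.6% and 36.5% if independent. With all UMIs, where depth differs between cells, Kdr and Flt1 were both present in 82.4% (79.98 to 84.6) of the aCap-like cells of hyperoxia, with 79.01% if independent. Over all ECs, Kdr was less frequent in cells with Vegfa than in cells without, 54.3% against 66.8% in room air and 54.2% against 75.0% in hyperoxia. Within gCap-like cells the pair of shares was 58.1% and 61.5% in room air and 55.5% and 53.8% in hyperoxia, so that no gap of that size was seen within this class.

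Lists of genes around the receptors were read in the same way in ECs. Of 18 genes known to be induced in ECs by VEGF, 16 passed the minimum in pooled ECs, with 3 higher (Apln, Plaur and Igfbp3) and 6 lower (Esm1, Angpt2, Dll4, Nr4a2, Hlx and Cxcr4), beside 6.86% and 9.47% of all genes. The median log2 ratio was 0.03 beside 0.01 for all genes above the minimum. In gCap-like cells 15 passed the minimum, with 3 higher (Apln, Plaur and Nos3), the same 6 lower (all genes 7.16% and 10.2%) and a median of 0.18 beside -0.01. In aCap-like cells 12 passed the minimum, with Nos3 higher, Hlx lower (all genes 8.71% and 9.28%) and a median of 0.03 beside 0.01. Dll4, the Notch ligand of tip cells, was 147 CPM in gCap-like cells of room air and 87.5 CPM in those of hyperoxia. Esm1, a secreted tip cell marker, was 56.6 and 30.2 CPM there. The chemokine receptor gene Cxcr4 was 57.8 and 17.6 CPM. Apln, which encodes the ligand of the gCap receptor APLNR and is also a tip cell gene, went the other way, 45.9 and 116 CPM in gCap-like cells. In aCap-like cells, where its level was higher, Apln was 697 and 603 CPM. The list thus did not move in 1 direction.

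Of 15 genes of VEGF receptor signaling, 12 passed the minimum in pooled ECs and in gCap-like cells and none lay past 1.5, with medians of -0.02 and -0.0042 (all genes 0.01 and -0.01). In aCap-like cells 1 of 11 was higher (Fyn, a Src family kinase gene) and 1 lower (Ptprb, encoding the phosphatase VE-PTP of endothelial junctions, 407 and 200.05 CPM), with a median of 0.13. Among 12 semaphorin and plexin genes, the other partners of neuropilins, 7 passed the minimum in pooled ECs, with Sema3c, Plxna2 and Plxna4 higher, Sema3g lower and a median of 0.43. Of all genes, 16.3% lay past 1.5 in either direction in ECs, 17.3% in gCap-like and 18% in aCap-like cells. Sema3c, Plxna2 and Plxna4 were also higher in both capillary classes. Sema3c, a secreted semaphorin, was 1221 and 2279.7 CPM in gCap-like and 559.6 and 1574 CPM in aCap-like cells. Plxna2, a semaphorin receptor gene, was 52.2 and 83.3 CPM in gCap-like and 106 and 241 CPM in aCap-like cells. In gCap-like cells 2 of the 7 were lower (Plxna1 and Plxnd1) and the median was 0.41, and in aCap-like cells 2 of 8 were lower (Sema3a and Sema3g) and the median was -0.27. Of 8 genes of oxygen control, 5 passed the minimum in ECs and in both capillary classes and none lay past 1.5, with medians from -0.17 to -0.03. Epas1, which encodes HIF-2 alpha, was 2997 and 2741 CPM in gCap-like cells. No gene of the VEGF-C and VEGF-D axis (3 genes) reached the minimum in ECs. VEGF-D mRNA (Figf in the files) was found in alveolar fibroblast-like cells, at 452 and 446 CPM. Of 10 dissociation genes, 1 was higher in ECs (Zfp36), 0 in gCap-like and 2 in aCap-like cells, with medians of 0.31, 0.20 and 0.24.

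Over 46 points (23 cell classes in each library, which share library and depth), the pattern of Kdr was most like those of the junction genes Cldn5 (Pearson's r = 0.95 of log2(CPM + 1)) and Cdh5 (0.94) and of Egfl7 (0.94), out of 8669 genes that reached 50 CPM in a class. The nearest genes to Flt4 were Egfl7 (0.95), Cldn5 (0.94) and Arhgef15 (0.94), and to Flt1 they were Klhl5, Adcy4 and Sox18 (0.91 each). Kdr and Flt4 had an r of 0.91 with each other. Nrp1 was nearest to the BMP receptor gene Bmpr2 (0.89), then Stx12 (0.88) and Plscr3 (0.87). Among the ligands, Pgf was nearest to Ccdc3 (0.87), the muscle filament gene Des (0.87) and Aspn (0.86), and Vegfc to the Wnt receptor gene Fzd4 (0.86), Gxylt2 (0.85) and Clec14a (0.85). The nearest genes were less close for Vegfa (Arhgef26 0.81, Ndst1 0.81 and Lama5 0.79), Vegfb (Hmgn1 0.84, Dynll2 0.78 and Tanc2 0.76) and Nrp2 (Dapk1 0.75, Grn 0.71 and Tmbim1 0.71).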

How the data were processed

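Whole-lung scRNA-seq was analysed from 1 room air and 1 hyperoxia library, the groups being those given by the titles. Raw UMI counts were deposited by the authors, who had aligned reads to mm10 with Cell Ranger. The sources name Cell Ranger 6.1.1 (protocol), 2.1.1 (submitters' processing notes) and 3.1.0 (matrix header), and the labels name a v2 kit where the methods name v3. Reads had been converted with bcl2fastq 2.20.

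The deposited counts were analysed in Python 3.11.15 with scipy 1.17.1, numpy 2.4.6 and pandas 2.3.3. The libraries held 39593888 UMIs in 4234 barcodes (room air) and 111934936 in 13223 (hyperoxia). Barcodes with fewer than 500 genes (345 and 1026) or over 20% mitochondrial UMIs (80 and 486) were removed, then 129 and 1238 likely doublets, found by simulated pairs at 0.8% per 1000 barcodes. Scaled counts (10000 per cell) of the 2000 most variable genes gave 30 components, and graphs of 20 neighbours were clustered (scikit-learn 1.9.0, igraph 0.11.9, leidenalg 0.10.2, resolution 1, seed 1), first into lineages and then within them. Clusters were named by raised markers (at least 3), and stayed unnamed where markers of another class led. The naming rule was adapted after the clusters had been seen, and the genes, lists and markers were chosen with earlier results of these data known.

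UMIs were summed per class and library as CPM. Exact Poisson, conditional and Clopper-Pearson 95% intervals were computed with scipy and tested on simulated data. Ratios were read for classes with at least 20 cells in each library. Club-like cells were left out of the ratios, since their median UMIs differed widely. Named genes were the 9 VEGF genes, the members of the lists and the 3 genes nearest in pattern to each VEGF gene. No test was made with 1 library per group. Alternatives changed the doublet rate, cell filters, resolution, joint clustering, scaling (TMM included), free RNA, thinning and list thresholds. Alternatives without EC marker cells, with cells of at least 2000 UMIs and at the room air make-up were added after the data had been seen. Figures were drawn with matplotlib 3.10.9.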

Additional observations from a re-analysis of the deposited data

Results flagged for a closer look

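Nrp1 was higher in hyperoxia in gCap-like cells, with a log2 ratio of 0.15 from 1035 and 1147 CPM, and lower in aCap-like cells, with a log2 ratio of -0.22 from 2769 and 2372 CPM. It drew attention because it was the single gene of the 9 whose counting intervals lay on opposite sides of no difference in the 2 capillary classes. With 1 library per group the difference was not tested. In gCap-like cells of hyperoxia, 1 cluster had 1279.6 CPM and another 964 CPM, on either side of the 1031 CPM of the room air cluster. In aCap-like cells the direction differed between clusters as well, 3289.9 and 2658 CPM in 1 cluster and 2091 and 2249.7 CPM in another.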

How the results depend on the processing

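No paired analysis was possible because each group had 1 library. Of 42 ratios past 1.5 in either direction in all kept cells, ECs and single endothelial, epithelial, stromal, macrophage, monocyte and dendritic classes (club-like, neutrophil-like and lymphocyte classes and the other lineage pools were not included), 40 kept their direction under every setting run and 27 stayed past 1.5. The 2 that reversed were Vegfa in aCap-like cells (0.51 as a mean over single cells) and Flt1 in smooth muscle-like cells (-0.91 with each library clustered on its own), and the cause was not tested. Of 1167 alternative ratios, 135 moved outside the counting interval of the reported value, as did 510 of 2642 levels, 31 of 50 source shares and 11 of 18 differences in detection, and 9 of 36 list counts moved by over 1.5 times. Without doublet removal the log2 ratio was -0.044 for Vegfa in AT1-like cells, -0.35 for Kdr and -0.29 for Nrp1 in aCap-like, 2.20 for Pgf in smooth muscle-like cells and 0.46 for Kdr in ECs. At double the doublet rate Kdr was -0.32 in gCap-like, -0.33 in aCap-like cells and 0.58 in ECs, and Nrp1 was -0.28 in aCap-like cells. With cells held to a minimum of 1000 genes and a maximum of 10% mitochondrial UMIs, Flt1 in gCap-like cells was 0.0035, Kdr was -0.19 in aCap-like cells and 0.44 in ECs, and Nrp1 was -0.16 in aCap-like cells. At resolution 2 Vegfa in gCap-like cells was -0.022. With each library clustered on its own, the values in gCap-like cells were 0.026 for Vegfa and 0.016 for Flt1, and others were 0.065 for Vegfa in AT1-like, 1.49 for Nrp1 in alveolar fibroblast-like, 2.79 for Pgf in pericyte-like cells and 0.40 for Kdr in ECs. As means over single cells, Kdr was -0.28 in gCap-like and -0.40 in aCap-like cells, and Nrp1 -0.28 in aCap-like cells. With TMM, Kdr was -0.12, Flt1 0.00084 and Nrp1 0.22 in gCap-like cells, and Kdr 0.59 in ECs. Without EC marker cells, Nrp1 was 1.43 in alveolar fibroblast-like, Pgf 1.65 in myofibroblast-like and 2.06 in smooth muscle-like, and Flt1 3.81 in pericyte-like cells. At the room air make-up Kdr in ECs was -0.23.

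The source shares of Vegfa in AT1-like cells of room air were 19.7% without doublet removal and 22.8% with separate clustering, and 27.8% in hyperoxia at the room air make-up. For Vegfa in gCap-like cells they were 25.7% in room air with separate clustering, and in hyperoxia 13.9% without doublet removal, 19.0% with separate clustering and 34.2% at the room air make-up. Vegfc in gCap-like cells of hyperoxia held 36.6% without doublet removal and 65.3% at that make-up. Pgf in myofibroblast-like cells of room air held 70.1% and 79.3% (no doublet removal, separate clustering), and 67.1% and 67.6% in hyperoxia (no doublet removal, make-up). Double the doublet rate left 7 AT1-like cells in hyperoxia, and resolution 0.5 left 4 alveolar fibroblast-like cells there, so these gave no ratio. AT1-like, artery-like and vein-like cells rest on under 150 cells per library, and all intervals cover counting error only.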

Other observations

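Pericyte-like cells also differed in genes of the list known to be induced in ECs by VEGF. Of the 18 genes of that list, 9 had a mean CPM of 10 or more in pericyte-like cells, with 5 higher in hyperoxia (Nr4a1, Nr4a2, Unc5b, Stc1 and F3), 1 lower (Cxcr4), beside 20.9% of 8584 genes past 1.5 in either direction. The median log2 ratio was 0.68, beside -0.03 for all such genes. F3, which encodes tissue factor, was 25.9 CPM in room air against 90.4 CPM in hyperoxia, and Stc1, which encodes the hormone stanniocalcin, 46.5 against 139 CPM. Nr4a1, an immediate early gene, was 222 against 460.5 CPM, and 6 of 10 dissociation genes were higher in the same cells.

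Hif3a, which encodes a hypoxia-inducible factor that lacks the strong activation domain of its relatives, was 1.67 CPM in alveolar fibroblast-like cells of room air (5 UMIs) against 13.6 CPM (173 UMIs) in those of hyperoxia. Egln3, which encodes a prolyl hydroxylase that marks these factors for decay and is itself induced in hypoxia, was 19.2 against 8.11 CPM in myofibroblast-like cells. Both genes belong to the list on oxygen control, and these values were singled out after they had been seen. The mean of Hif3a was below the minimum of 10 CPM used for counts.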
